A study of Mus musculus with 84 samples.

Results

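Distal H3K4me1 regions were compared between adipocytes of mice that had been fed a high-fat diet (HFD) for 12 weeks (H) and age-matched chow-fed mice (C). H3K4me1 is monomethylation of lysine 4 of histone H3. A distal region was a merged H3K4me1 peak, from any of the 22 H3K4me1 libraries of the series, that lay outside 2000 bp of every protein-coding transcription start site (TSS) and touched no H3K4me3 peak of any library. Of 70779 merged H3K4me1 regions, 26064 met this rule. A region counted as marked wherever a peak of the library overlapped it by 1 bp or more, as gained when it was marked in all 3 H libraries and no C library, and as lost when the reverse held. There were 115 gained regions, which is 0.441% of all distal regions, and 101 lost regions, which is 0.388%. The H3K4me1 lists of these 6 libraries chose the gained and lost regions, so H3K4me1 at those regions in H and C is described and not tested.

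The mice were male offspring of AdipoERCre and NuTRAP lines kept on a C57BL/N background, in which tamoxifen given before the diet turns on a biotin label on nuclei of cells that express the adiponectin-driven Cre. Every group carried both alleles and received tamoxifen. Labelled nuclei from epididymal fat were pulled down for CUT&Tag, where an antibody steers a transposase to chromatin that carries a given histone mark, and the series holds 84 such libraries, each as a list of peaks. C and H mice were 18 weeks old (n = 3 each for H3K4me1 and H3K27ac, and for H3K27me3 3 C and 2 H). The other animals used here were 26 weeks old, either on chow throughout (CC_s) or on HFD for 12 weeks and then chow for 8 weeks (HC), 31 weeks old on chow (CC_l) or on HFD for 25 weeks (HH), and 39 weeks old on chow (CCC) or on HFD for 25 weeks and then chow for 8 weeks (HHC). For H3K4me1 these groups held 3 libraries each, except CC_l and CCC with 2. The pool of labelled nuclei is read as 1 sample, so fewer nuclei with a mark and less mark per nucleus cannot be told apart.

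Enhancers are stretches of DNA, often far from the gene they act on, where transcription factors bind and help to raise transcription. Their flanking nucleosomes carry H3K4me1 whether the enhancer is poised or active, H3K27ac is added at active ones, and H3K27me3 is the mark of Polycomb repression. In adipocytes, enhancers bound by PPARγ and C/EBP factors sit near genes of lipid storage, adipokines and insulin action.

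From the called regions with the strongest H3K4me1 peaks that were linked to a gene, 3 gained and 3 lost are shown first, as 200 bp around the highest coverage of the strongest peak, because the results below refer back to these loci. A region was linked to the closest protein-coding gene within 20000 bp of its body. The sequences are the plus strand of GRCm38 from RefSeq, and capitals mark exact matches on either strand to the transcription factor motifs listed with the motif counts.
Mepe, gained, chr5:104358104-104358303: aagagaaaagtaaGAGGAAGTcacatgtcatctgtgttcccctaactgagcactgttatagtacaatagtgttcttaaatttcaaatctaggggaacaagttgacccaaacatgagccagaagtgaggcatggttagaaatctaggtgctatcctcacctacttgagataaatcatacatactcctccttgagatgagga
Thrb, gained, chr14:17917245-17917444: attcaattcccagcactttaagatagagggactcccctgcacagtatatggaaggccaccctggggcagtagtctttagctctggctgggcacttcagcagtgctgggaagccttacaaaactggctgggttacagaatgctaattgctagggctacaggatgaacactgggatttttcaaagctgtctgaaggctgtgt
Shroom3, gained, chr5:92886098-92886297: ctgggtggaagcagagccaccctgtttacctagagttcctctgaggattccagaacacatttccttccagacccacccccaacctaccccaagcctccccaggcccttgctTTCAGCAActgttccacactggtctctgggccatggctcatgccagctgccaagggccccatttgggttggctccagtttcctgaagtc
Mylk4, lost, chr13:32775968-32776167: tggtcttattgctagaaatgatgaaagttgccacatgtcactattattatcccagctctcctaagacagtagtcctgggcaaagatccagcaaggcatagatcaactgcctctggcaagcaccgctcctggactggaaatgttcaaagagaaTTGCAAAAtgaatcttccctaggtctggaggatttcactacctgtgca
Grik4, lost, chr9:42732900-42733099: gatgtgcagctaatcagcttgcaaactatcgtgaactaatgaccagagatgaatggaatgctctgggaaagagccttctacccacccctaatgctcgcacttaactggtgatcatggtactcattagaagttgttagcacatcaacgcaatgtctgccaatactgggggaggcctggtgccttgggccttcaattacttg
Brd1, lost, chr15:88698233-88698432: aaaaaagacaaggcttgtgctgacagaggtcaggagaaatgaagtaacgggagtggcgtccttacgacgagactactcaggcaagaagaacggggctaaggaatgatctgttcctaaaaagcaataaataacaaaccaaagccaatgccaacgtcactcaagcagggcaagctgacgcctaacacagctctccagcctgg
Among these 6 windows, the Mepe window held 1 PU.1 match, and the Shroom3 and Mylk4 windows held 1 C/EBP match each. No listed motif matched in the Thrb, Grik4 and Brd1 windows.

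H libraries marked more distal regions than C libraries. The C libraries marked 1014, 1021 and 1141 distal regions, and the H libraries marked 2522, 3078 and 1612. The groups did not overlap, and H exceeded C by 1.14 on the log2 scale, or 2.20-fold (exact permutation test, two-sided, p = 0.1, the smallest p that 3 against 3 allows, adjusted p = 0.14 over 7 tests). This count covers all distal regions and comes from the lists that chose the called regions, so it is no support for the calls. The difference was 0.51 on the log2 scale when every library was cut to an equal number of peaks, and 1.73 when only the stronger 50% of each library's peaks were kept. H libraries also held more peaks in all, from 20092 to 27244 against 18477 to 18764 in C, and a larger share of their peaks lay in distal regions, 8.21% to 11.9% against 5.52% to 6.30%. H peaks were narrower, with medians of 1140 to 1325 bp against 1349 to 2014 bp. The part of peak width in the calls was not tested. H replicate 3 stood apart in mean coverage within its peaks, at 30.9 fragments against 8.49 to 14.5 in the other 5 libraries.

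**Figure D1:**
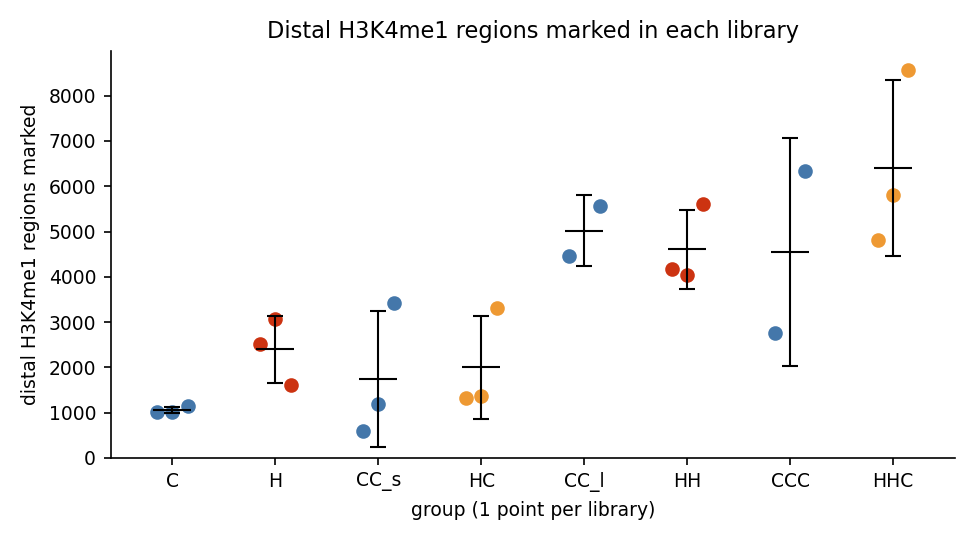
Number of distal H3K4me1 regions marked in each library (y axis), by group (x axis), with 1 point per library and a bar and whiskers at the mean ± SD. The 3 H libraries, from 1612 to 3078, lie above the 3 C libraries, from 1014 to 1141, and the libraries of all groups range from 587 to 8577.

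Most distal regions carried no peak in these 6 libraries. Of 26064 regions, 6828 were marked in at least 1 of the 6, and of those 1.68% were gained and 1.48% were lost. Only 38 regions were marked in all 6 libraries, whereas 3939 were marked in a single H library and no C library, and 738 in a single C library and no H library. Just outside the rule, 737 regions were marked in 2 H libraries and no C library, and 35 were marked in all H libraries and 1 C library. For losses, 246 regions were marked in 2 C libraries and no H library, and 102 in all C libraries and 1 H library. Gained regions were 53.2% of the called regions. When each library was reduced to its 14486 strongest peaks, as many as the smallest H3K4me1 library of the series held, 17 regions were gained and 62 lost, so that gains were 21.5% of calls. At equal peak number, 11 of the 115 gained regions and 39 of the 101 lost regions kept their call. Requiring peaks to cover 50% of a region left 10 gained and 25 lost regions, or 28.6% gains. Leaving out a library can only add calls, because the rule then has fewer libraries to satisfy. The following counts show the size of the rise and do not test the calls. Without H replicate 3 there were 599 gained and 173 lost regions, without H replicate 1 248 gained, without H replicate 2 235 gained, without C replicate 1 178 lost, and without C replicate 3 224 lost.

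Called regions were wider than distal regions in general, and their peaks were mostly of middle rank. The median width of the merged region was 3777 bp for gained and 3512 bp for lost regions, against 2067 bp over all distal regions. It was 2496 bp over regions marked in at least 1 H or C library and 4504.5 bp over those marked in all 6. The part of the calling rule in this width was not tested. The total signal of a peak was read as its percentile within its own library. Gained regions had median percentiles of 36.1, 43.99 and 32.6 in H replicates 1, 2 and 3, where all marked distal regions had 27.5, 30.2 and 25.4. Lost regions had medians of 29.4, 28.7 and 37.1 in C replicates 1, 2 and 3, against 21.6, 21.97 and 24.4. The medians of called regions were above those of all marked distal regions in each library and below the library's percentile of 50.

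Gained and lost regions lay mostly inside genes. Of 115 gained regions, 59 were intronic, 18 touched an exon of a protein-coding transcript and 38 were intergenic, and of 101 lost regions 48 were intronic, 14 touched an exon and 39 were intergenic. Introns held 51.3% of gained and 47.5% of lost regions against 47.5% of all distal regions, so both sets were placed much like distal regions in general. The median distance to the nearest TSS was 42430 bp for gained and 47937 bp for lost regions, against 37139 bp over all distal regions. Within 10 kb of a TSS lay 18.3% of gained and 7.92% of lost regions, against 15.5% of all. At 200 kb or more lay 10.4% of gained and 15.8% of lost regions, against 9.21%. Chromosome 7 held 15 lost regions, or 14.9% of them, where it held 5.99% of all distal regions, and 9 gained regions. Calls of the same direction were within 50 kb of each other in 5 pairs of gained and 4 pairs of lost neighbours. Median GC content of the 500 bp around the highest coverage was 46.2% in gained, 46% in lost and 46.2% in all distal regions, and the median share of repeat-masked bases there was 8.8%, 10.6% and 11.8%.

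**Figure D2:**
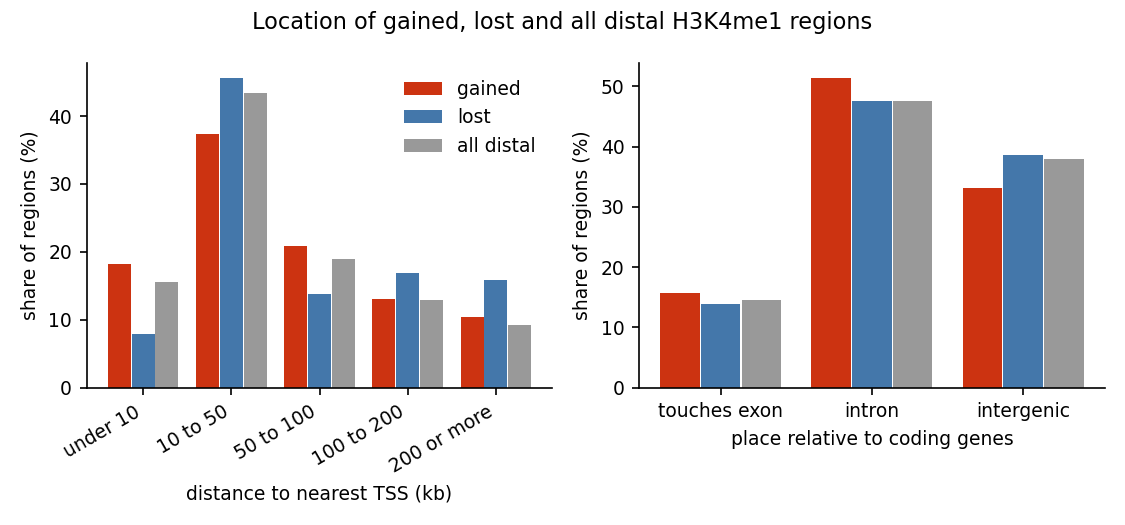
Share of regions (y axis, %) by distance to the nearest TSS in kb (left) and by place relative to protein-coding genes (right), for 115 gained, 101 lost and 26064 distal regions. Lost regions have the smallest share within 10 kb, 7.92%, and the largest at 200 kb or more, 15.8%.

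Links within 20000 bp gave 89 genes for 92 gained regions and 66 genes for 72 lost regions. The strongest gained region, at chr5:104356915-104361697, lay 18304 bp from Mepe, which encodes a phosphoglycoprotein of bone matrix, and its peaks were at percentiles 85.8, 81.1 and 73.4 in the 3 H libraries. A gained region in an intron of Thrb, the gene for thyroid hormone receptor β, at chr14:17915143-17918742, was at percentiles 66.4, 62.5 and 80.2. Another, in an intron of Shroom3, which encodes an actin-binding regulator of cell shape, at chr5:92884943-92888554, was at 42.3, 82.5 and 73.8. All 3 regions were without a peak in every C library, as the rule requires, and the 3 H libraries did not rank them alike. Intronic gains were also found in Rcan1, a regulator of calcineurin (chr16:92410575-92413954), in Mob3b, a member of the MOB family of kinase activators (chr4:35001931-35007416), and in Dennd5a, an activator of Rab GTPases (chr7:109943249-109947025). The strongest gains that touched exons were in Lrig2, a leucine-rich repeat membrane protein (chr3:104459485-104462611), and in Kcnab1, a potassium channel β subunit (chr3:65295258-65299270). Heca held an intronic gain at chr10:17923079-17927478.

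A run of 3 gained regions lay near Rybp, which encodes a subunit of Polycomb repressive complex 1, on chromosome 6. The closest, at chr6:100210352-100217352, was 11213 bp from the gene and was the only one linked to it. The others, at chr6:100188468-100198463 and chr6:100179381-100183778, were 30102 and 44787 bp away. These regions carried H3K27me3 peaks in 2, 3 and 2 of the 3 C libraries, respectively, and in 0, 1 and 0 of the 2 H libraries. H3K27me3 peaks were narrower in H, with medians of 549 and 592 bp against 1242 to 1425 bp in C. The part of this width in the contrast was not tested. In other animals H3K27me3 was in 1, 2 and 0 of 3 CC_s and 1, 1 and 0 of 3 HC libraries. It was in 1, 2 and 2 of 2 CC_l and 0, 1 and 1 of 2 HH libraries. In CCC it was in 2, 2 and 1 of 2, and in HHC in 1, 3 and 1 of 3. None of the 3 regions had an H3K27ac peak in any H or C library. In other animals their H3K4me1 peaks were found in 3 of 3 HH libraries each, while CC_l held 2, 0 and 0 of 2. The 3 regions are close neighbours, so they are not independent. The region at chr6:100188468-100198463 was at percentile 0.0473 in H replicate 3, against 89.1 and 33.8 in H replicates 1 and 2. The region at chr6:100179381-100183778 was at 13.4 in H replicate 1, against 59.9 and 55.5 in H replicates 2 and 3. At equal peak number only the region closest to Rybp kept its call. None kept it when only stronger peaks were used or when peaks had to cover more of a region.

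Several genes had more than 1 gained region. Setbp1, which encodes a DNA-binding partner of the oncoprotein SET, had 2 of its 12 linked distal regions gained. Vps13d, for a lipid transfer protein of mitochondria and other organelles, had 2 of 9, at chr4:145129519-145132009 and chr4:145135495-145140649. Gcnt2, for an enzyme that branches glycan chains, had 2 of 6, at chr13:40937616-40940920 and chr13:40970128-40973105. Each pair lay within 50 kb, so its members are not independent. None of these regions kept its call at equal peak number, with the stronger 50% of peaks or at 50% cover. In each gene 1 region was weak in H replicate 2, at percentiles 5.14 for Setbp1, 4.59 for Vps13d and 6.003 for Gcnt2. The same regions were at 29.03 to 82.6 in H replicates 1 and 3.

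Among lost regions, the strongest was in an intron of Osbpl1a, which encodes an oxysterol-binding protein, on chromosome 18, at percentiles 81.6, 83.8 and 61.5 in C. A lost region in an intron of Mylk4, a myosin light chain kinase family member, at chr13:32774223-32777364, was at 59.0, 72.9 and 70.8. A lost region in an intron of Grik4, a kainate receptor subunit, at chr9:42730039-42735408, was at 63.8, 61.7 and 72.8, and one that touched an exon of Brd1, a scaffold of histone acetyltransferase complexes, at chr15:88696956-88701292, was at 62.3, 55.8 and 71.7. None of the 4 regions had a peak in any H library, as the rule requires. The remaining strong losses were linked to Ttc23 (chr7:67770354-67773480), to Tgm3, a transglutaminase (chr2:130038431-130041416), to Rora, an orphan nuclear receptor of the circadian clock (chr9:68990839-68995743), to Slc17a1, a sodium phosphate transporter (chr13:23875360-23878665), to Hivep3, a zinc finger protein (chr4:119719351-119722717), and to Fndc3b, a promoter of adipogenesis (chr3:27561110-27564639). Fndc3b also had 1 gained region and was the only gene linked to regions of both directions.

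Several genes had more than 1 lost region. Ppargc1b, a coactivator of oxidative metabolism, had 2 of its 7 linked distal regions lost, both intronic, and Nrf1, nuclear respiratory factor 1, had 2 of 4, at chr6:30120030-30128702 and chr6:30138428-30140756. Tenm4, a teneurin that spans the membrane and takes part in cell contacts, had 4 of 38 lost, all intronic, with the first at chr7:96282165-96289533 and the last at chr7:96717731-96721242, and Ralgapa2, a subunit of the GTPase-activating complex for Ral, had 2 of 14. The Ppargc1b pair and the Nrf1 pair each lay within 50 kb, so the members of a pair are not independent. At equal peak number, 1 region each of Ppargc1b, Nrf1 and Ralgapa2 kept its call, and none of Tenm4 did. In C replicate 3, 1 region of Ppargc1b was at percentile 2.56 and 1 of Nrf1 at 4.02, and in C replicate 1, 1 of Tenm4 was at 3.53. These regions were at 18.3 to 54.2 in the other C libraries. Among the losses that kept the same direction most widely in other animals were those of Smoc1, a matricellular protein (chr12:81089737-81094223), of Srpk2, a splicing factor kinase (chr5:23654410-23656437), and an intergenic region at chr12:110223156-110229041, 50027 bp from the TSS of Dio3, the deiodinase that inactivates thyroid hormone.

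Lists of genes of adipose biology held few of the called regions. The 15 lists held 423 genes with 1040 linked distal regions, of which 6 (0.577%) were gained and 4 (0.385%) lost, where all 19510 linked regions gave 0.472% and 0.369%, which is close to the shares in the lists. Nuclear receptors and steroid action had 2 gained regions, at Thrb and Ncoa2 (chr1:13339586-13344178, a coactivator of nuclear receptors), and 1 lost, at Rora, of 103. Adipocyte transcription factors had 1 gained region of 92, in an intron of Nfia (chr4:97989574-97991810), and none lost. Fatty acid uptake and triglyceride synthesis had 1 gained of 13, at 3432 bp from Fabp5, a fatty acid carrier (chr3:10020039-10024378). The TGF-β and BMP pathway had 1 gained of 74, at 14960 bp from Tgfbi, a TGF-β-induced matrix protein (chr13:56587935-56594563). Thermogenesis and β-oxidation had 2 lost of 18, both at Ppargc1b. At equal peak number, Thrb and 1 of the 2 Ppargc1b regions kept their call, and the other regions named here did not. The Tgfbi peak was at percentile 1.48 in H replicate 1, and the Fabp5 peak at 7.92 in H replicate 3. In the other H libraries they were at 62.6 and 64.6, and at 28.5 and 79.9. In 9 lists no region was called. These were adipokines and secreted hormones with 9 regions, lipid droplet and lipolysis with 14, de novo lipogenesis with 25, insulin signalling and glucose uptake with 79, macrophage and lysosome with 38, inflammatory signalling with 36, extracellular matrix and proteases with 119, the Wnt pathway with 92, and AP-1, ATF and stress factors with 67.

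H3K27ac, measured in other libraries of the same animals, was lower at the lost regions in H. Of the 101 lost regions, 40, 37 and 32 had an H3K27ac peak in the 3 C libraries, and 1, 1 and 3 in the 3 H libraries. The groups did not overlap, with means of 35.97% ± 4.00 in C and 1.65% ± 1.14 in H (SD, n = 3 each), a change of -34.3 percentage points (exact permutation test, two-sided, p = 0.1, the smallest possible, adjusted p = 0.14). With called regions and H3K27ac peaks taken at equal peak number the change was -12.9 points, and with the stronger 50% of peaks -21.6 points. At the 38 regions marked in all 6 libraries the H3K27ac share was 45.6% ± 13.5 in C and 19.3% ± 6.62 in H, and over all distal regions 2.96% ± 0.841 and 2.15% ± 1.52 (SD, n = 3 each). H3K27ac peaks were narrower in H, with medians of 477 to 801 bp against 1372 to 1765 bp, and covered 9.60 to 24.4 Mb against 42.8 to 49.0 Mb. The part of this difference in the loss of H3K27ac was not tested. H3K27ac was in every C library and no H library at 12 lost regions, or 11.9%, where 104 of all distal regions, 0.399%, showed this pattern. Named by this count and not by the rule for named genes, those linked to a gene included Osbpl1a, Smoc1, Slit3, a guidance ligand, Ntrk3, a neurotrophin receptor, Negr1, a neuronal adhesion molecule, Acss3, a mitochondrial acyl-CoA synthetase, and Vegfa, the angiogenic growth factor. The Vegfa region, at chr17:45996873-46000179, was 31177 bp from the TSS.

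At the gained regions H3K27ac overlapped between the groups. Of the 115 gained regions, 2, 4 and 11 had an H3K27ac peak in C and 31, 17 and 7 in H, so that H replicate 3 fell below the highest C library. Among the H libraries, macrophage and endothelial markers with H3K27ac were also fewest in replicate 3, at 0 of 16 and 1 of 14. Each C library had 3 and 0, and the part of these markers in the result was not tested. The means were 4.93% ± 4.11 in C and 15.9% ± 10.5 in H (SD, n = 3 each), a difference of 11.01 percentage points (exact permutation test, two-sided, p = 0.2, adjusted p = 0.233). Without H replicate 1 the difference was 3.83 points. In all, 41 gained regions had H3K27ac in at least 1 H library and 15 in at least 1 C library, and 68 had none in either. The shares were 35.7% for H and 13.04% for C, against 5.64% and 6.24% of all distal regions. Of regions marked by H3K4me1 in at least 1 H or C library, they were 13.7% and 15.8%. H3K27ac was in every H library and no C library at 2 gained regions, or 1.74%, where 4 of all distal regions, 0.0153%, showed this pattern. Of these 2 gained regions, 1 lay in an intron of Hs3st4, a heparan sulfate sulfotransferase (chr7:124224193-124228743), and the other was not linked to a gene.

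H3K27me3 was rare at called regions. Among lost regions, 0 of 101 had an H3K27me3 peak in each of the 3 C libraries, and 4 and 5 had one in the H libraries. The groups did not overlap, and H exceeded C by 4.46 percentage points (exact permutation test, two-sided, p = 0.1, the smallest possible, adjusted p = 0.14). The difference was 1.61 points at equal peak number and 0 points both with the stronger 50% of peaks and at 50% cover. A count of 0 in a peak list is a region below the peak threshold of that library. Over all distal regions the shares were 3.17% ± 0.612 in C (SD, n = 3) and 2.32% in both H libraries. The 8 lost regions with an H3K27me3 peak in at least 1 H library included those at Vegfa and Smoc1 and 1 at Tenm4, and only the region in an intron of Med12l, a Mediator subunit (chr3:59023925-59028780), had it in both. Among gained regions 2, 3 and 2 of 115 had H3K27me3 in C and 3 and 2 in H, a difference of 0.145 points (exact permutation test, two-sided, p = 1).

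**Figure D3:**
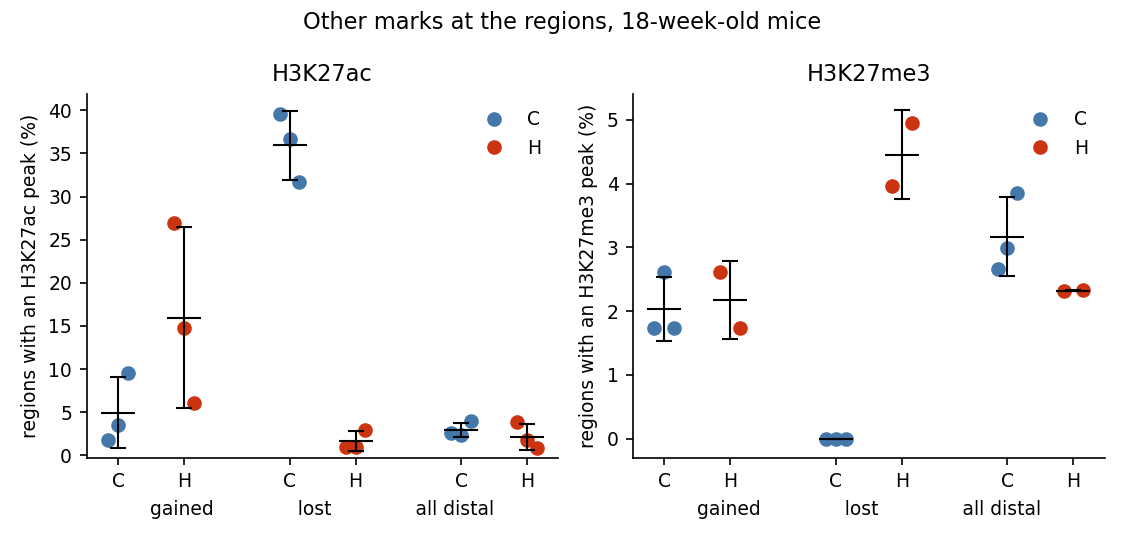
Share of gained, lost and all distal regions with an H3K27ac (left) or H3K27me3 (right) peak (y axes, %) in C and H, with 1 point per library and mean ± SD. At lost regions H3K27ac spans 31.7% to 39.6% in C and 0.990% to 2.97% in H, while at gained regions the groups overlap.

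The called regions were next read in animals that took no part in choosing them. H3K4me1 marked 93.1% and 100% of lost regions in CC_l and 8.91%, 41.6% and 66.3% in HH, and the groups did not overlap (difference of -57.6 percentage points, exact permutation test, two-sided, p = 0.2, where 0.1 is the smallest possible). After weight loss, lost regions were marked at 92.1% and 100% in CCC and 15.8%, 17.8% and 87.1% in HHC, again without overlap (-55.8 points, exact permutation test, p = 0.2). In the 12-week cohort CC_s marked 31.7%, 55.4% and 98.0% of them and HC 3.96%, 31.7% and 38.6%, with overlap (-37.0 points, exact permutation test, p = 0.3). Over all distal regions the mean shares were 19.3% in CC_l and 17.7% in HH, and 17.4% in CCC and 24.6% in HHC. In CC_s and HC they were 6.66% and 7.66%. At the 38 regions marked in all 6 H and C libraries, mean shares were also lower with diet. They were 100% in CC_l and 76.3% in HH, 98.7% in CCC and 78.9% in HHC, and 84.2% in CC_s and 68.4% in HC. The part of this in the drop at lost regions was not tested. Gained regions overlapped between diet and chow in each comparison, with 52.2% and 56.5% marked in CC_l against 31.3%, 81.7% and 94.8% in HH, 33.04% and 60.9% in CCC against 35.7%, 51.3% and 72.2% in HHC, and 7.83%, 12.2% and 46.96% in CC_s against 17.4%, 32.2% and 44.3% in HC. H3K27ac at gained regions was in 3.48% and 0.870% in CC_s against 4.35%, 13.04% and 13.04% in HC, and in 25.2% and 11.3% in CC_l against 30.4%, 43.5% and 53.9% in HH, without overlap in either comparison (exact permutation test, p = 0.2 each), while CCC and HHC overlapped. At lost regions H3K27ac also separated HC from CC_s and HH from CC_l without overlap (-17.8 and -38.6 points, exact permutation test, p = 0.1 each). HHC and CCC overlapped there too (-19.1 points, exact permutation test, p = 0.5). Over all distal regions mean H3K27ac shares were 1.69% in CC_s and 3.33% in HC, and 8.82% in CC_l and 9.63% in HH. At the 38 regions marked in all 6 libraries they were 28.9% and 25.4%, and 72.4% and 51.8%, in the same order. Whether the size of the separation, apart from its direction, differed between gained and lost regions was not tested. In at least 1 CC_l library 81 of the 115 regions called gained at 18 weeks were marked by H3K4me1. The CC_l libraries also marked more of all distal regions, 17.2% and 21.4% against 3.89% to 4.38% in C. Of the regions marked in at least 1 H or C library they marked 33.5% and 40.3%. Libraries differed in how many distal regions they marked at all, from 587 in a CC_s library to 8577 in an HHC library, and this number moves with both shares.

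The percent of gained regions marked minus the percent of lost regions marked was taken as a score in each library, because both shares move with the number of regions marked. For H3K4me1 this score was -23.9, -43.3 and -51.1 points in CC_s against 5.73, 0.491 and 13.4 in HC, -40.9 and -43.5 in CC_l against 22.4, 40.2 and 28.4 in HH, and -59.0 and -39.1 in CCC against 19.8, -15.0 and 33.5 in HHC. Diet lay above chow without overlap in all 3 comparisons, and the mean of the 3 differences was 60.1 points (exact permutation test within comparisons, two-sided, p = 0.0005, the smallest possible, adjusted p = 0.0035). In the order HC, HH and HHC, the differences at gained regions alone were 8.99, 14.9 and 6.09 points, with overlap each time. At lost regions alone they were -37.0, -57.6 and -55.8 points. The score therefore does not show that the gains recurred in other animals. For H3K27ac the mean score difference was 41.8 points (exact permutation test within comparisons, two-sided, p = 0.002, adjusted p = 0.007). H3K27ac scores were -8.40 and -32.8 in CC_s against 1.38, 5.12 and 9.08 in HC, -35.2 and -49.1 in CC_l against 21.5, 13.8 and 27.2 in HH, and -45.1 and -17.9 in CCC against 22.8, -20.03 and 12.3 in HHC, where 1 library overlapped. At equal peak number the H3K27ac difference was 10.5 points with p = 0.062 in the exact permutation test, and the H3K4me1 difference was 57.2 points. When peaks had to cover 50% of a region, the H3K4me1 difference was 32.8 points (exact permutation p = 0.012, adjusted p = 0.084) and the H3K27ac difference 26 points (exact permutation p = 0.075, adjusted p = 0.175), so neither passed the threshold after adjustment. With the stronger 50% of peaks the H3K27ac difference was 19.6 points (exact permutation p = 0.017, adjusted p = 0.0595). HHC replicate 2 was the only diet library with a score below 0, in both marks. Without it the differences were 64.7 and 45.9 points.

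**Figure D4:**
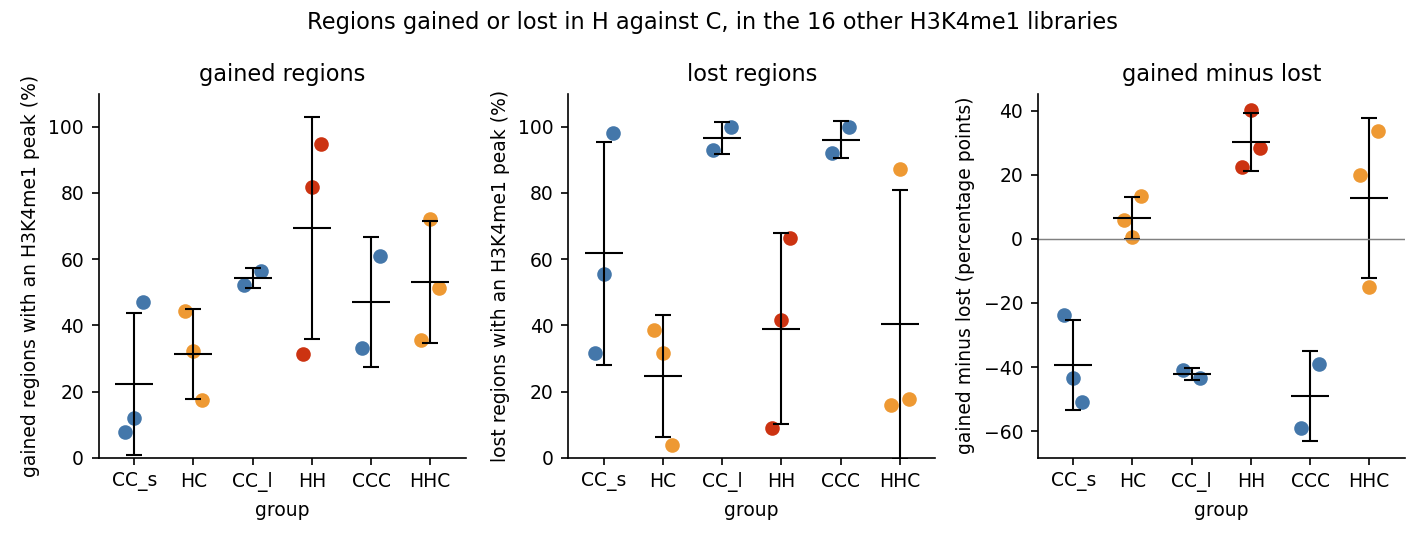
Share of the 115 gained (left) and 101 lost (middle) regions with an H3K4me1 peak (y axes, %), and the first share minus the second in percentage points (right), in the 16 H3K4me1 libraries that did not choose the regions, with 1 point per library and mean ± SD. In the right panel 8 of 9 diet libraries lie above 0 and all 7 chow libraries below it.

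Region by region, 98 of the 101 lost regions were marked in a smaller mean share of diet than of chow libraries over the 3 other comparisons, and 66 of the 115 gained regions in a larger one. Over all 26064 distal regions 30.1% had a smaller share in diet libraries and 63.9% a larger one, and over the 6828 marked in at least 1 H or C library these were 39.6% and 39.4%. The gained regions, at 57.4%, lay between those references. Marking in every HH and no CC_l library was seen at 8 gained regions, 6.96% of them against 0.821% of all distal regions, among them Ncoa2, Lrrc8c, a subunit of volume-regulated anion channels (chr5:105565736-105569610), and both unlinked regions near Rybp. Marking in every CC_l and no HH library was seen at 27 lost regions, 26.7% against 3.42% of all distal regions. In every CC_s and no HC library this held for 6 lost regions, 5.94% against 0.303%, at Mylk4, Smoc1, Tenm4, Lypd6b and the regions nearest to Dio3 and Elovl5, and in every CCC and no HHC library for 9, 8.91% against 2.19%, among them Tgm3 and Srpk2. No gained region was marked in every HC and no CC_s library, a pattern seen at 0.0192% of all distal regions. At so low a share, its absence among 115 regions says nothing about them. In every HHC and no CCC library it was 11 gained regions, 9.57% against 1.19%, among them Tgfbi, Ncoa2, Dennd5a and Rybp.

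**Figure D5:**
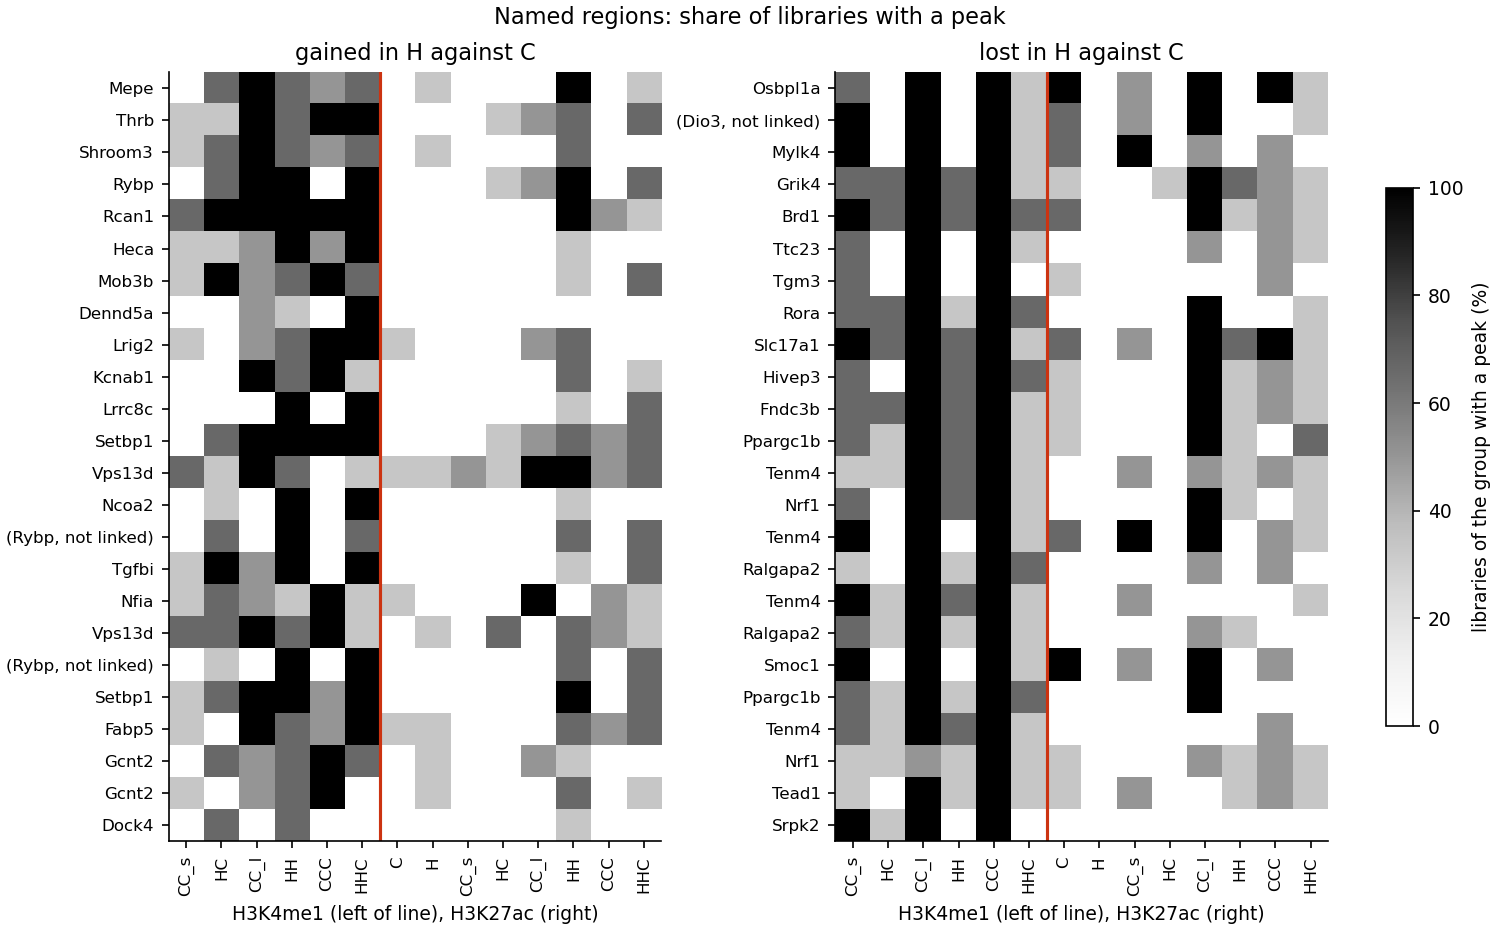
Named gained (left) and lost (right) regions in rows, by linked gene, and groups in columns, with H3K4me1 left and H3K27ac right of the red line. Grey shows the share of the group's libraries with a peak (0 to 100%). Lost regions are marked by H3K4me1 in at least 1 of the 2 CC_l and in both CCC libraries in every row, and none has H3K27ac in H.

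At the promoters of linked genes, 2000 bp either side of a TSS, H3K4me3 and H3K27ac shares were lower on average in H than in C for genes linked to lost regions, as they were, by less, for all genes with a distal region. H3K4me3 was present at 87.9% to 92.4% of the 66 genes linked to lost regions in C and 62.1% to 80.3% in H, and at 82.0% to 85.4% of the 89 genes linked to gained regions in C and 57.3% to 78.7% in H. All genes with a distal region showed 73.7% to 77.0% in C and 53.1% to 70.8% in H. H3K27ac marked 56.1%, 60.6% and 57.6% of the promoters linked to lost regions in C, and 50%, 36.4% and 33.3% in H, without overlap, against 46.8% to 49.2% and 26.9% to 50.5% for all. For gained regions it marked 49.4%, 52.8% and 49.4% in C and 60.7%, 52.8% and 38.2% in H. H3K27me3 marked 16.7%, 9.09% and 19.7% of the promoters linked to lost regions in C and 31.8% and 34.8% in H, without overlap, while all genes showed 15.3% to 19.4% and 18.4% to 19.3%. These promoter shares are described and were not tested.

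Motif letters were counted in 500 bp around the highest coverage, on both strands, and matches are a description of sequence, not of binding. AP-1 (TGANTCA) matched in 20% of gained and 13.9% of lost windows, against 18.4% of all distal windows. C/EBP (TTGCNNAA) matched in 27.8%, 29.7% and 24.1%, and the glucocorticoid receptor motif (ACANNNTGT) in 16.5%, 15.8% and 18.2%. EBF (CCCNNGGGA) matched in 7.83% of gained and 16.8% of lost windows against 8.36%, and the longer NF1 motif in 4.35% and 6.93% against 2.06%. EBF and NF1 factors act in adipocyte differentiation. PU.1 (GAGGAAGT), a factor of myeloid cells, matched in 9 gained and 3 lost windows, or 7.83% and 2.97%, against 5.51%. The remaining motifs were RUNX (TGTGGTT) with 14.8%, 11.9% and 12.8%, STAT (TTCNNNGAA) with 12.2%, 13.9% and 16.1%, TEAD (GGAATGT) with 6.96%, 9.90% and 8.28%, NF-kB (GGGANTTCC) with 1.74%, 0.990% and 1.99%, the E-box of TFEB and MITF (TCACGTG) with 0.870%, 2.97% and 2.60%, the PPARG-RXR direct repeat with 1.74%, 2.97% and 1.46%, and CTCF with 2.61%, 0.990% and 3.46% of gained, lost and all windows. A share of 1% of these sets is about 1 region, and no test was made.

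The adipocyte label was checked against marker genes, counted as marked when an H3K4me1 peak touched the gene or 2000 bp around it. Of 16 adipocyte markers, 16, 15 and 14 were marked in C and 11, 12 and 14 in H, with Adipoq, Pparg and Plin1 marked in all 6 libraries and Lep in all 3 C and no H library. Cfd and Lipe went the other way, each in 2 C and 3 H libraries. Of 14 endothelial markers, 4 were marked in each C library and 9, 7 and 4 in H, with Cdh5 in no C and all 3 H libraries. Vwf and Esam went the other way, in 3 C libraries each and in 1 and 2 H libraries. Of 16 macrophage markers, 4, 2 and 3 were marked in C and 7, 4 and 4 in H, while Adgre1, Lyz2, Tyrobp and C1qa were marked in none of the 6. Ptprc and Mpeg1 were each marked in 1 C and 3 H libraries. Fcer1g went the other way, in 3 C and 2 H, as did Cd68, in 1 C and 0 H. Progenitor markers were marked at 3 to 4 of 13 in both groups, lymphocyte markers at 1 to 3 of 15, mesothelial markers at 0 to 2 of 12, and mural markers at 8 to 9 of 11 in C and 5 to 7 in H. By H3K4me3 at promoters, 14 and 15 of the macrophage markers were marked in H replicates 1 and 2, 0 in H replicate 3, and 5 to 7 in C, and Adgre1, Lyz2 and C1qa were among those marked in 2 H libraries and no C library. Endothelial markers by H3K4me3 were marked at 13, 10 and 0 of 14 in H replicates 1, 2 and 3 and at 3, 5 and 8 in C. By H3K27ac, 9, 7 and 0 macrophage and 6, 4 and 1 endothelial markers were marked in H replicates 1, 2 and 3, against 3 and 0 in each C library. H3K27ac at gained regions was likewise highest in H replicate 1 and lowest in H replicate 3, among the H libraries. The part of other cell types in the gained regions was not tested. None of the 98 distal regions linked to a marker gene of the 7 lists was gained or lost, a number of regions in which few calls could fall, since 0.472% and 0.369% of all linked regions were called.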

How the data were processed

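The authors deposited 84 CUT&Tag peak lists called by SEACR on coverage of GRCm38, 1 per library, with the total and highest signal of each peak, not scaled for depth. The submitters' processing notes name Trim Galore 0.6.6, Bowtie2 2.4.4, SAMtools 1.13, bedtools 2.30 and SEACR 1.3. The lists were used before any blacklist filter. Sequencing depth per library is not in the lists, so no counting interval or count model could be had and the number of peaks is given in its place. Of the H3K4me3 libraries, 4 had a title that differed from the treatment label, and these entered only the pooled H3K4me3 peaks used to remove promoters.

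Peaks of the 22 H3K4me1 libraries were merged, and regions within 2000 bp of any of 41438 TSS of 21851 protein-coding genes (GENCODE basic set, GRCm38), or touching a peak of any of 21 H3K4me3 libraries, were removed. Regions were linked to the nearest gene body within 20000 bp and classed as exonic where they touched an exon. Groups were compared over libraries by two-sided exact permutation of the mean, within comparisons for the other animals, with Benjamini-Hochberg adjustment over 7 tests and a threshold of 0.05. The labels call replicates biological. Python 3.11.15, numpy 2.4.6, pandas 2.3.3, pysam 0.24.0, samtools 1.23.1 and matplotlib 3.10.9 were used, and the calling and permutation code was tested on simulated data. Same-numbered H and C libraries were checked for pairing: their deviations from group means correlated at 0.038, 0.024 and 0.046, so they were not treated as paired.

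Members and gene lists were chosen with earlier results of these data known. Regions named are, per direction, the 10 linked regions with the highest mean signal percentile, called regions of listed genes (at most 4 per list), the 5 regions that differed most by diet in other animals, and genes with 2 or more regions called alike. Other genes named beside a count were chosen after their values were seen. The results of 1 gene list and of 1 gene are not reported here.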

Additional observations from a re-analysis of the deposited data

Results flagged for a closer look

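The difference in distal regions marked between HFD and chow was set against that at the longer diet. H exceeded C by 1.14 on the log2 scale after 12 weeks, while HH differed from CC_l by -0.13 after 25 weeks, and the difference between these effects was 1.27 (exact permutation of labels within each comparison, two-sided, p = 0.03, adjusted p = 0.18 over 6 such tests). It did not pass the threshold after adjustment. The values behind it were 1014 to 1141 regions in C, 1612 to 3078 in H, 4470 and 5574 in CC_l, and 4042 to 5604 in HH. The C and H values come from the lists that chose the called regions, so they are no support for the calls.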

How the results depend on the processing

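The number of called regions moved with how peaks were counted. There were 17 gained and 62 lost regions with an equal number of peaks, 19 and 17 with only the stronger 50% of each library's peaks, and 10 and 25 when 50% of a region had to be covered. Leaving out each library in turn gave 119 to 599 gained and 115 to 224 lost regions, where fewer libraries to satisfy can only add calls. The H3K27me3 difference at gained regions turned to -0.225 points with regions merged from H and C alone, and spanned -0.139 to 0.709 points with a library left out. The H3K27ac score difference in other animals fell to 10.5 points (exact permutation p = 0.062) at equal peak number and 26 points (exact permutation p = 0.075) at 50% cover, and the cause was not tested. With the replicate block, the H minus C difference in distal regions marked was 1.14 on the log2 scale (exact permutation p = 0.25, the smallest possible), and the H3K4me1 score difference was 65.0 points (exact permutation p = 0.0156). With the block, both score differences missed the threshold once corrected for 7 tests (exact permutation, adjusted p = 0.109 each), and 0.0156 and 0.0313 were the smallest p the block allows for H3K4me1 and H3K27ac. Every H and C library correlated best with the library of its own number in the other group, a hint from the data and not from the design. The difference in H3K27ac at gained regions was 3.92 points at equal peak number and 1.75 with the stronger 50% of peaks. With 3 libraries a group, p could not fall below 0.1, so comparisons of H with C could not pass the threshold under any setting.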
